A study of Homo sapiens with 6 samples.

Results

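NEAT1 and MALAT1 are 2 long noncoding RNAs that stay in the nucleus and are transcribed from neighbouring genes. Their poly(A)-primed 3′ ends were counted in 6 libraries made by A-seq from HEK293, an established line of human embryonic kidney origin. Reads were taken from 2 windows on the plus strand of chromosome 11 (hg19). The NEAT1 window ran from 65190000 to 65213500 (23501 nt) and the MALAT1 window from 65265000 to 65275000 (10001 nt). These are 2 genes in a series whose poly(A) sites formed 28114 nuclear units, a unit being a run of sites on 1 strand with gaps of at most 5 kb. Annotation of the build of the files was not used here, so the windows carry gene names by position, and other loci are named by coordinates.

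A-seq selects poly(A) RNA, fragments it, and primes reverse transcription with an anchored oligo(dT), so that a read ends where the RNA body meets a run of A. The cells had no siRNA, scrambled siRNA (scrambled-A), CF Im25 siRNA (Ambion S224836) or CF Im59 siRNA (Ambion S21772) in the 4 libraries fragmented by alkaline hydrolysis. In the 2 libraries fragmented with RNase I they had scrambled siRNA (scrambled-A) or CF Im68 siRNA (a Dharmacon double-stranded oligo). All siRNA-treated cells were harvested after 3 days, and each group held 1 library. CF Im25, CF Im59 and CF Im68 are subunits of cleavage factor Im, and the series asks how each bears on the choice of 3′ end. Whether each siRNA lowered its own target was not analysed here. Library totals lay between 5351980 and 18183644 reads, and 84.3% to 91.2% of them fell into nuclear units. CPM below means reads per 1000000 of those nuclear unit reads. With 1 library per group no difference could be set against a spread between replicates, and there are no p-values. Every interval is a 95% interval for the counting error of reads only, and PCR copies, which these counts do not mark, can make it too narrow.

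NEAT1 is the RNA scaffold of paraspeckles, nuclear bodies that hold proteins such as SFPQ and NONO. The gene makes 2 main isoforms from 1 promoter. The short one is cleaved and polyadenylated at an early site, and cleavage factor Im is known to favour that ending. The long one reads through this site, builds the paraspeckle, and has a 3′ end that RNase P cuts and a triple helix protects in place of a poly(A) tail. MALAT1, an abundant RNA of nuclear speckles, ends in the same way, by RNase P cleavage next to a triple helix. For both, polyadenylated RNA is therefore only a part of the transcripts, and levels here are levels of poly(A)-primed ends, not of total RNA.

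Sequences of the annotated transcripts show the elements that 3′ end processing reads. They come from GENCODE release 29 on GRCh38, are written in DNA letters, and were not placed on the coordinates of the files, which use another build. The short transcript NEAT1-208 (2994 nt) carries the canonical poly(A) signal AATAAA 11 bases before its end, counted from the first base of the signal. Among the short NEAT1 transcripts it was picked as the one with a signal near its end. In NEAT1-201, NEAT1-203 and NEAT1-207 the last AATAAA begins 2203, 2151 and 2245 bases before the end, and their last 200 bases hold 4, 3 and 5 TGTA. The shorter NEAT1-204, NEAT1-205 and NEAT1-206 hold 0, 2 and 0 TGTA there. The end of NEAT1-208 is shown, with the signal in capitals, because the falls below concern the short isoform.
NEAT1-208 last bases: tcttcccctttacagcacaAATAAAgtttg
In its last 200 bases this transcript holds TGTA 5 times, the DNA spelling of the UGUA motif that cleavage factor Im binds. The search covered the RNA strand only, with overlaps allowed, and 1.08% of the 198128 GENCODE transcripts of at least 200 bases have 5 or more in that window. AATAAA lies in the last 30 bases of 22.2% of them. The 5 copies begin 180, 165, 121, 83 and 53 bases before the end, and they are shown in that order with TGTA in capitals.
copy 180 bases before the end: ttgggatttagagTGTAttagtcacgcatg
copy 165 bases before the end: tattagtcacgcaTGTAtggggaagtagtc
copy 121 bases before the end: gtgaaattgaaacTGTAaaagtagatggtt
copy 83 bases before the end: tggtatgttgctcTGTAtggtaagaactaa
copy 53 bases before the end: ttctgttacgtcaTGTAcataattactaat
The long transcript NEAT1-202 (22743 nt) has 141 TGTA in all but 0 in its last 200 bases, and its last AATAAA begins 5039 bases before the end. It ends in encoded A-rich sequence.
NEAT1-202 last bases: ctgtgaaagagtgagcaggaaaaagcaaaa
The MALAT1-202 transcript (8708 nt) has 3 TGTA in its last 200 bases and an AATAAA, in capitals here, 23 bases before its annotated end.
MALAT1-202 last bases: tttgtgtAATAAAaatggagaagctctaaa
Encoded runs of A matter for this assay because its primer anneals through a run of T. NEAT1-202 holds 14 runs of 6 or more A, the longest of 22, and MALAT1-202 holds 12, the longest of 13. That is 0.616 and 1.38 runs per kb, where the median of the 9611 GENCODE transcripts of at least 5000 bases is 0.663. The short transcript NEAT1-208 holds 0. The end of NEAT1-208 lies at base 3716 of NEAT1-202, and the A runs of NEAT1-202 were measured from there, to set their distances beside those of the read ends described next. The runs that begin 6497, 13158, 13948 and 13967 bases past that end are shown, with the A run in capitals.
run 6497 bases past the short end: aaattgctgcAAAAAAAAAAAAAAccacaa
run 13158 bases past the short end: gactttgtttAAAAAAAAAAAAAAgtgact
run 13948 bases past the short end: acgctgtctcAAAAAAAAAcaaaaacgaca
run 13967 bases past the short end: caaaaacgacAAAAAAAAAAcaaaacagaa
In MALAT1-202 the run that begins 6484 bases before the transcript's end is shown, again for its distance.
run 6484 bases before the MALAT1 end: aatagcactgAAAAAAtgaggaaattattg

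The reads of NEAT1 fell on a few places. Sites were called by pooling ends within 25 nt of a summit and keeping those with a mean of at least 1 CPM over the libraries, and 6 sites in 3 units passed in the NEAT1 window. They held 86.0% to 95.5% of its reads. The short isoform end had its summit at chr11:65193997, with a smaller called site at 65193971 beside it. Downstream of it lay sites at 65200470, 65207142, 65207942 and 65207969, inside the part that only the long isoform covers. The last had the fewest reads of the 6 sites, from 6 to 28 per library, and is not described further. No kept site lay near the 3′ end of the window, where the mature long isoform stops.

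All 4 downstream sites lay at encoded A runs when distances were compared, a comparison made after the counts were seen. In the files (hg19) they lay 6473, 13145, 13945 and 13972 nt past the short end. In the transcript (GRCh38) the A runs printed above began 24, 13 and 3 bases after the distance of the first 3, and the last fell inside its run. Only 2.61% of the 19027 transcript bases past the short end lie in a run of 6 or more A or within 30 bases before one. Neither site of the short end lay beside such a run. By the same measure only 5 of the 14 runs past the short end had a kept site, and the longest, 14330 bases past it, had none. The distances were taken separately in each build, with the end of NEAT1-208 assumed to be the summit at 65193997. Whether reads at these 4 sites mark a poly(A) tail or a primed encoded run cannot be told apart from the counts, and values of the downstream part below are counts of read ends with that limit. The plot of cumulative reads along NEAT1 shows these places as steps.

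**Figure D1:**
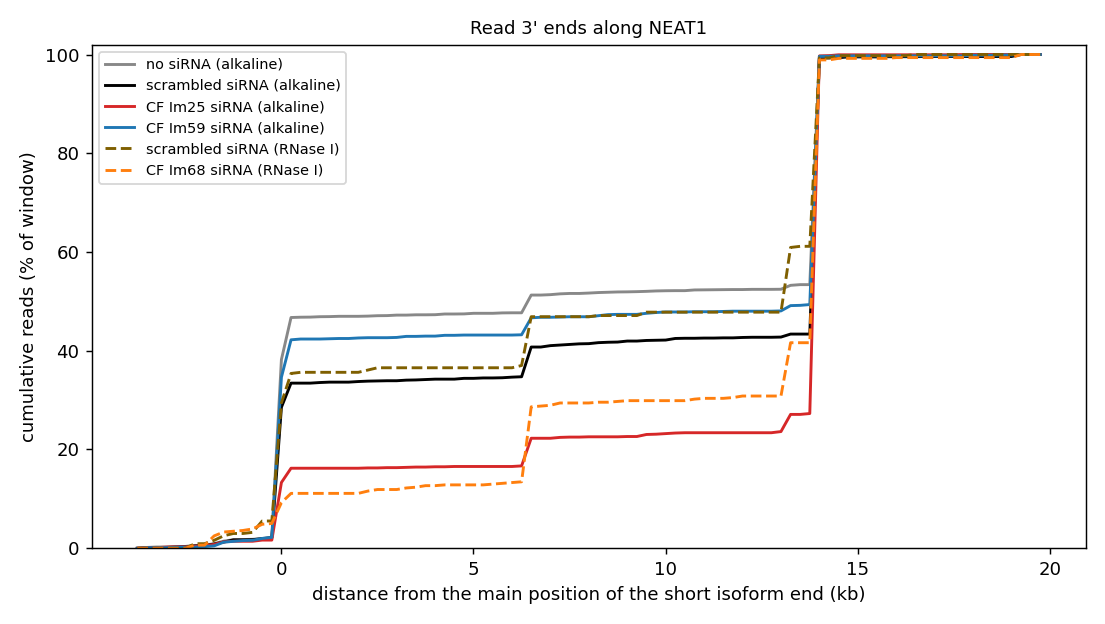
Cumulative share of the NEAT1 window's reads (y axis, percent) against distance from the short isoform end at 0 (x axis, kb, 250 nt bins), 1 line per library, dashed for RNase I. The first step is the short end and the last the site 13945 nt beyond it. The first step is lowest in the CF Im25 and CF Im68 siRNA libraries.

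The short isoform end had fewer reads in the CF Im25 and CF Im68 knockdown libraries than in their controls. Among the alkaline libraries, NEAT1 up to 500 nt past that end stood at 139 CPM without siRNA (2305 reads), 95.4 CPM after scrambled siRNA (828 reads), 28.4 CPM after CF Im25 siRNA (275 reads) and 68.4 CPM after CF Im59 siRNA (789 reads). With RNase I the same part stood at 33.1 CPM in the scrambled library (155 reads) and 6.48 CPM in the CF Im68 library (71 reads). Levels and ratios of the short end below are those of this whole part, unless its called sites are named. In the CF Im68 library 30 of its reads lay at the site at 65193997 and 1 at 65193971, the rest mostly upstream. The CF Im25 library was the lowest of the 4 alkaline ones, its Poisson interval (25.2 to 32.0 CPM) apart from those of the other 3, and the 2 RNase I intervals did not overlap either. Against its own control the fall was 3.36-fold for CF Im25 siRNA (interval 2.92 to 3.86) and 5.10-fold for CF Im68 siRNA (interval 3.83 to 6.86).

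Both falls passed the rule of size for totals, which asks for a 2-fold difference, at least 50 reads in 1 library and an interval of the ratio that excludes 1. Under that rule 12.1% of 14983 units were lower in the CF Im25 comparison and 6.96% of 13531 in that of CF Im68, so a called fall was not rare in the first comparison. For no siRNA against scrambled siRNA 4.29% of 16791 units were higher and 4.3% lower. Of the tested units, 3.91% had a lower ratio than the NEAT1 short end for CF Im25 and 0.576% for CF Im68 siRNA. The CF Im59 value was 1.39-fold below scrambled siRNA (interval 1.26 to 1.54), and the no siRNA value was 1.46 times scrambled siRNA (interval 1.35 to 1.58). The 2 alkaline controls thus differed from each other by about as much as CF Im59 siRNA differed from scrambled siRNA. With no siRNA as the control in place of scrambled siRNA, the ratio after CF Im25 siRNA was 0.204, and after CF Im59 siRNA it was 0.491, past 2-fold. The CF Im25, CF Im59 and no siRNA comparisons share the scrambled siRNA library, and the CF Im68 comparison shares no library with them.

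The called sites of the short end, taken alone, gave the same directions. With RNase I the site at 65193997 had 21.97 CPM in the scrambled library (103 reads) and 2.74 CPM in the CF Im68 library (30 reads), a ratio of 0.125 (interval 0.0801 to 0.189). With alkaline hydrolysis it had 125 CPM without siRNA (2066 reads), 82.5 CPM after scrambled siRNA (716 reads), 24.0 CPM after CF Im25 siRNA (232 reads) and 61.7 CPM after CF Im59 siRNA (711 reads). The CF Im25 ratio to scrambled siRNA was 0.291 (interval 0.250 to 0.338). The low-read site at 65193971 had 120, 56, 9 and 29 reads in the no siRNA, scrambled, CF Im25 and CF Im59 libraries, and 12 and 1 in the RNase I pair. At both sites the CF Im25 library was thus the lowest of the alkaline ones and the CF Im68 library below its control. These called sites adjoin and are not independent ends. The larger spans 65193972 to 65194010 and takes in the heavily used position 65193973, and the smaller stops at 65193971.

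Seen nucleotide by nucleotide, the short end has 2 summits 24 nt apart, at 65193973 and 65193997, a division made after the counts were seen. The upstream summit, counted up to 12 nt before the main position, held 33.7% of 2184 reads without siRNA, 37.2% of 772 after scrambled siRNA, 29.05% of 241 after CF Im25 siRNA and 25.3% of 740 after CF Im59 siRNA. It held 47.0% of 115 reads in the scrambled RNase I library, where position 65193973 had 41 reads and 65193997 had 33, and 25.8% of 31 with CF Im68 siRNA. Wilson intervals overlapped between CF Im25 siRNA (23.7 to 35.1%) and scrambled siRNA (33.8 to 40.6%) and between CF Im68 siRNA (13.7 to 43.2%) and its control (38.1 to 56.0%). They did not overlap between CF Im59 siRNA (22.3 to 28.5%) and scrambled siRNA. Both summits thus kept reads in every library, and in the CF Im25 library both were below their scrambled siRNA counts.

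**Figure D2:**
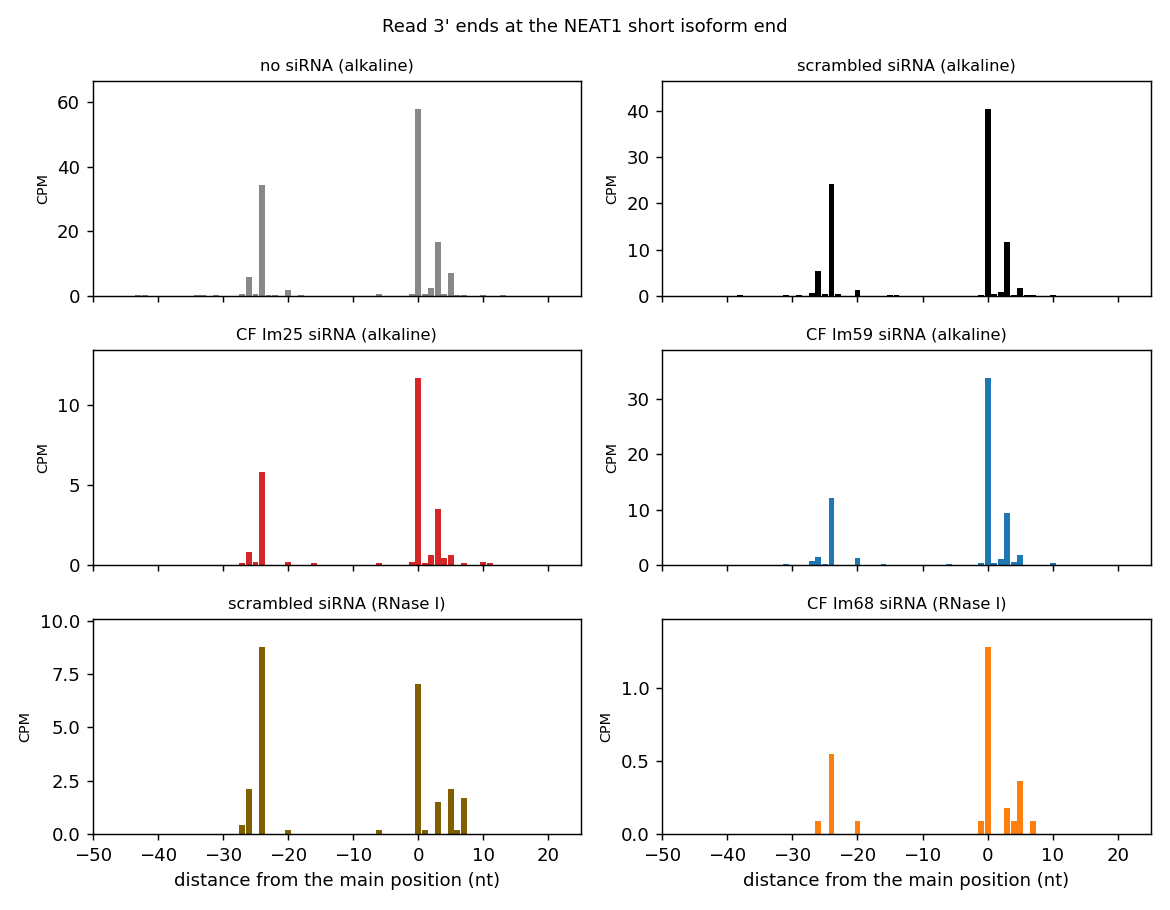
Reads per nucleotide at the NEAT1 short isoform end (y axis, CPM, a separate scale in each panel) against distance from the main position (x axis, nt), 1 panel per library. Ends gather at 0 and 24 nt before it in all 6 libraries, with the lowest scale in the CF Im68 siRNA library.

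Reads downstream of the short end differed from the control by less than 2-fold in the same 2 knockdown libraries. More than 500 nt past that end, NEAT1 stood at 158 CPM without siRNA, 190 CPM after scrambled siRNA, 147 CPM after CF Im25 siRNA and 93.1 CPM after CF Im59 siRNA (alkaline). The RNase I values were 59.7 CPM for scrambled and 51.8 CPM for CF Im68 siRNA. The CF Im25 and CF Im68 values were 0.774 (interval 0.721 to 0.832) and 0.868 (interval 0.751 to 1.01) of their controls, neither past 2-fold. The lowest alkaline value belonged to CF Im59 siRNA, 2.04-fold below scrambled siRNA (interval 1.89 to 2.21), where 11.1% of 15257 units were lower by the same rule. That call was lost with TMM scaling (ratio 0.524) and with no siRNA as the control (ratio 0.587).

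The downstream sites differed among themselves. The largest, at 65207942, had 136 CPM without siRNA (2251 reads), 159 after scrambled siRNA (1378), 125 after CF Im25 siRNA (1212) and 80.2 after CF Im59 siRNA (925), and 33.5 (157) and 31.4 (344) in the RNase I pair. Its ratio to the control was 0.789 after CF Im25, 0.505 after CF Im59 and 0.937 after CF Im68 siRNA (interval 0.774 to 1.14). The site at 65200470 had 10.3, 16.8, 9.82 and 5.20 CPM in the same alkaline order and 9.17 and 8.85 CPM in the RNase I pair, lowest again with CF Im59 siRNA (ratio 0.309, interval 0.225 to 0.421). The small site at 65207142 was higher in the CF Im25 library than in its control, with 56 reads against 15 (ratio 3.35, interval 1.87 to 6.38), and had 30 reads without siRNA and 18 after CF Im59 siRNA. After CF Im68 siRNA it stood at 66 reads against 50, a ratio of 0.565 (interval 0.385 to 0.833). No downstream site passed the 2-fold rule after CF Im68 siRNA.

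Since the ratio of the short end was the lower of the 2 parts after CF Im25 and CF Im68 siRNA, the share of NEAT1 reads past it was higher in both libraries. The downstream share, the percentage of NEAT1 reads more than 500 nt past the short end, was 53.2% without siRNA (Wilson interval 51.8 to 54.6), 66.6% after scrambled siRNA (64.7 to 68.4), 83.8% after CF Im25 siRNA (82.0 to 85.5) and 57.6% after CF Im59 siRNA (55.4 to 59.9). With RNase I it was 64.4% for scrambled siRNA (59.8 to 68.7) and 88.9% for CF Im68 siRNA (86.2 to 91.1). The CF Im25 and CF Im68 libraries were the highest of the 6, and their intervals did not overlap those of any other library.

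The rule of size for shares asks for 20 percentage points, at least 50 reads in both libraries and a Newcombe interval that excludes 0. After CF Im68 siRNA the rise of 24.5 points (interval 19.4 to 29.6) passed it. After CF Im25 siRNA the difference of 17.2 points (interval 14.6 to 19.8) did not pass against scrambled siRNA. It passed against no siRNA, at 30.6 points (interval 28.3 to 32.8), and without the single highest position of the window, at 21.9 points. No siRNA minus scrambled siRNA was -13.4 points (interval -15.7 to -11.01), so the CF Im25 difference from scrambled siRNA was close in size to the difference between these 2 controls. For CF Im68 siRNA there was no second RNase I control. CF Im59 minus scrambled siRNA was -8.93 points (interval -11.8 to -6.02), and CF Im59 minus no siRNA was 4.42 points, so its direction depends on the control. RNase I minus alkaline, both with scrambled siRNA, was -2.19 points (interval -7.15 to 2.55). That value became 14.5 points without the highest position and 2.57 points with kept sites only, while NEAT1 as a whole was 3.07-fold lower with RNase I.

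Most downstream reads lay at the 4 sites beside encoded A runs, so the share was also taken without those sites. It was then 5.76% of 2446 reads without siRNA, 11.1% of 931 after scrambled siRNA, 13.5% of 318 after CF Im25 siRNA and 6.96% of 848 after CF Im59 siRNA. With RNase I it was 11.9% of 176 reads for scrambled siRNA and 35.5% of 110 for CF Im68 siRNA. The CF Im68 difference stayed at 23.5 points (interval 13.5 to 33.6), on 39 downstream reads against 21. The CF Im25 difference was 2.46 points, with an interval that includes 0 (-1.52 to 7.05). The CF Im25 difference in share thus rested on those 4 sites, whereas the levels of the short end given above do not include them.

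Over the site pairs of the whole series, a higher downstream share was the less common direction after both knockdowns. For CF Im25 siRNA it was called in 2.81% of 6702 pairs of sites within a unit, and a higher proximal share in 18.3%. For CF Im68 siRNA the figures were 1.78% and 24.4% of 5291 pairs. For CF Im59 siRNA they were 4.76% and 2.53% of 6889, for no siRNA 2.52% and 1.21% of 7177, and for RNase I against alkaline 21.1% and 24.7% of 5014. The short end and the largest downstream site of NEAT1 lie in different units, so they form no such pair. A background of neighbouring units on the same strand with gaps of up to 15 kb was therefore added after the data were seen. The unit of the downstream site nearest the short end lies between them, so they are not neighbouring units and this background matches them only in part. In this background the downstream unit gained 20 points in 4.48% of 4772 for CF Im25 siRNA and lost them in 5.3%. For CF Im68 siRNA it gained in 3.05% of 3907 and lost in 3.89%. For CF Im59 siRNA 3.91% of 4891 gained and 3.01% lost, for no siRNA 2.17% of 5013 gained and 1.34% lost, and for RNase I against alkaline 12.1% of 3781 gained and 10.9% lost. For CF Im68 siRNA a called downstream gain, the direction of NEAT1, was thus uncommon in both backgrounds. Only among pairs within a unit was it much rarer than the opposite direction, since among neighbouring units a called loss was about as uncommon.

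**Figure D3:**
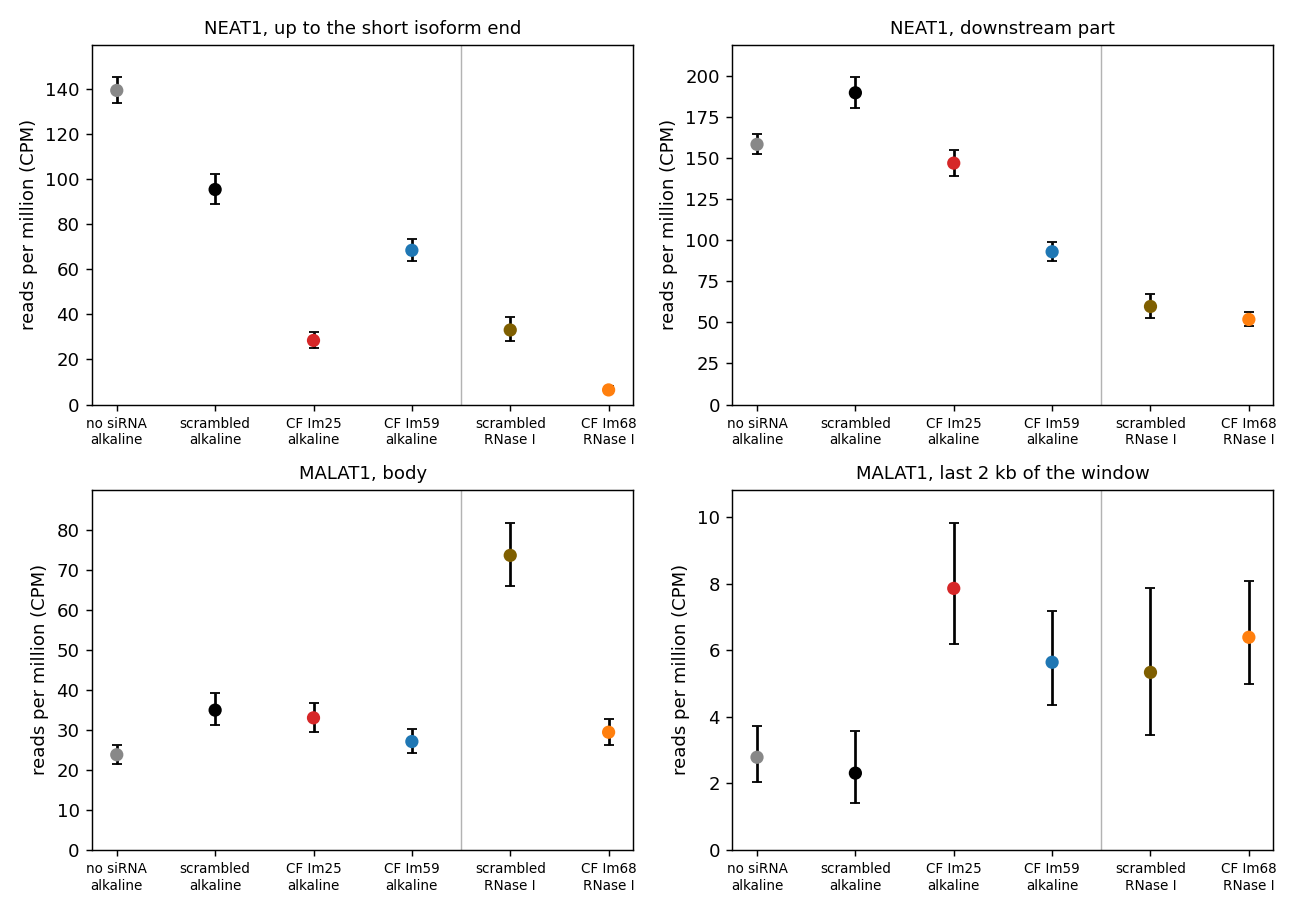
Level of each part of NEAT1 and MALAT1 (y axis, CPM from 0) in the 6 libraries (x axis, the line parts alkaline from RNase I). Points are single libraries and bars exact 95% Poisson intervals for counting error. The short end of NEAT1 is at 28.4 CPM with CF Im25 siRNA and 6.48 CPM with CF Im68 siRNA, and its downstream part at 147 and 51.8 CPM, against 190 and 59.7 CPM in their controls.

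Taken over its whole window, NEAT1 was lower in all 3 knockdown libraries than in their scrambled siRNA control, without passing 2-fold. It had 298 CPM without siRNA (4926 reads), 285 after scrambled siRNA (2476), 175 after CF Im25 siRNA (1697) and 161 after CF Im59 siRNA (1862). With RNase I it had 92.8 CPM for scrambled siRNA (435) and 58.3 for CF Im68 siRNA (639). The ratios were 0.615 (interval 0.578 to 0.655) for CF Im25, 0.566 (0.533 to 0.601) for CF Im59 and 0.628 (0.555 to 0.712) for CF Im68 siRNA. For no siRNA the ratio to scrambled siRNA was 1.04 (0.994 to 1.096). The order in the alkaline libraries was no siRNA, scrambled, CF Im25 and CF Im59, and the intervals of the first 2 neighbours overlapped. Those of CF Im25 (167 to 184 CPM) and CF Im59 siRNA (154 to 169 CPM) also overlapped. Against scrambled siRNA, the short end had the lower ratio of the 2 parts after CF Im25 siRNA and the downstream part after CF Im59 siRNA. Against no siRNA the CF Im59 ratios were 0.491 for the short end and 0.587 for the downstream part, so this contrast depends on the control. The CF Im25 ratios were then 0.204 and 0.928, in the same order as against scrambled siRNA. The single position 65207942 held 52.7% of the reads of the window with CF Im25 siRNA, and without it the CF Im25 ratio was 0.488 and past 2-fold.

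Per kb of window, MALAT1 had fewer read ends than NEAT1 in the 4 alkaline libraries and more in both RNase I libraries. Its level was 2.65 CPM per kb without siRNA against 12.7 for NEAT1, 3.72 against 12.1 after scrambled siRNA, 4.08 against 7.47 after CF Im25 siRNA and 3.27 against 6.87 after CF Im59 siRNA. With RNase I it was 7.89 against 3.95 for scrambled siRNA and 3.58 against 2.48 for CF Im68 siRNA. Not divided by length, NEAT1 had more reads than MALAT1 in all 6 libraries. In the RNase I pair it had 92.8 against 78.9 CPM for scrambled siRNA and 58.3 against 35.8 CPM for CF Im68 siRNA. The reversal thus appeared only per kb of window.

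The ends of MALAT1 were scattered. Its window held 10 kept sites in 1 unit, with 74.5% to 86.8% of its reads. Most ends lay far from the 3′ end of the gene. The third kb of the window, from 65267000 to 65267999, held 50.4% to 73.8% of the reads of each library, with the largest sites at 65267433 and 65267133 and others at 65267218 and 65267258. Only the site at 65273938 lay in the last 2 kb of the window. The place where RNase P cuts MALAT1 was not located here, so that site is not shown to be the mature 3′ end. With that site taken as the end of MALAT1-202, distances put 4 of the 10 sites beside an encoded A run by the measure used for NEAT1, where 5.06% of transcript bases do so. These were 65267433, the run of which is printed above and begins 21 bases past its summit, 65267218 and 65267258, and, named here after its values were seen, 65272345. The site at 65267133 and the terminal site were not beside one. Only 4 of the 12 runs of MALAT1-202 had a kept site, each of them a run of 6 A, and the longest, of 13 A, had none. The plot of cumulative reads along MALAT1 shows the early step and the final one.

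**Figure D4:**
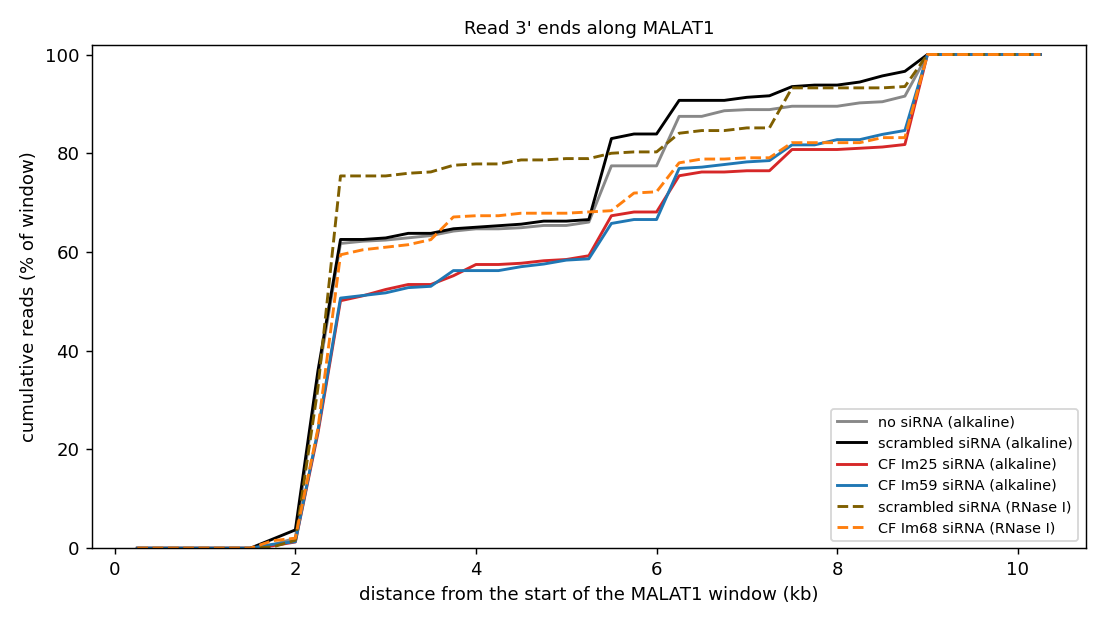
Cumulative share of the MALAT1 window's reads (y axis, percent) against distance from the start of the window (x axis, kb, 250 nt bins), 1 line per library, dashed for RNase I. Most reads lie between 2 and 3 kb, and the last step, near 9 kb, is larger in the 3 knockdown libraries than in the 3 controls.

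The total of MALAT1 fell past 2-fold only after CF Im68 siRNA, among the 3 knockdowns against their scrambled siRNA control. It had 26.5 CPM without siRNA (439 reads), 37.2 after scrambled siRNA (323), 40.8 after CF Im25 siRNA (395) and 32.7 after CF Im59 siRNA (377). In the order CF Im25, scrambled and CF Im59 siRNA, only neighbours had overlapping intervals, and no siRNA lay below all 3. With RNase I it had 78.9 CPM for scrambled siRNA (370) and 35.8 for CF Im68 siRNA (392), a fall of 2.21-fold (interval 1.91 to 2.55). The RNase I control stood apart, 2.12 times the alkaline scrambled siRNA library (interval 1.82 to 2.47; 1.79 without the highest position), while the CF Im68 value lay within the range of the alkaline libraries. Between the fragmentation methods 23.8% of 14135 units were higher and 34.8% lower by 2-fold, so a difference of that size was common there. With TMM scaling, which raised all CF Im68 ratios by 0.18 on the log2 scale, the ratio was 0.515 and no longer past 2-fold. The ratios after CF Im25 (1.097, interval 0.945 to 1.28) and CF Im59 siRNA (0.879, interval 0.755 to 1.02) had intervals that include 1.

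The fall after CF Im68 siRNA was in the body of MALAT1. The body, all but the last 2 kb of the window, went from 73.6 to 29.4 CPM, 2.50-fold lower (interval 2.15 to 2.92). The site at 65267433 went from 24.3 CPM (114 reads) to 7.21 CPM (79 reads), a ratio of 0.296 (interval 0.220 to 0.398), and the site at 65267133 from 12.6 to 4.20 CPM, a ratio of 0.334 (interval 0.222 to 0.499). The site at 65267218 went from 38 to 21 reads (8.11 to 1.92 CPM), and the site at 65267258 had 11 and 25 reads (2.35 and 2.28 CPM). So 3 of these 4 named body sites were lower in the CF Im68 library and the last was nearly level. By distance, all of them but 65267133 lay beside an encoded A run. Whether reads at those sites mark a poly(A) tail or a primed encoded run cannot be told apart from the counts. The body was not recounted without them. In the alkaline libraries the body stood at 23.8 CPM without siRNA, 34.9 after scrambled, 33.0 after CF Im25 and 27.1 after CF Im59 siRNA. There the site at 65267433 varied little, from 4.84 to 5.99 CPM. The site at 65267133 was highest with scrambled siRNA (7.95 CPM) and between 3.21 and 4.14 CPM in the other 3, no siRNA included. The sites at 65267218 and 65267258 had 31, 8, 22 and 21 reads and 23, 21, 36 and 28 reads in the no siRNA, scrambled, CF Im25 and CF Im59 libraries.

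Some smaller MALAT1 sites, picked after their values were seen, differed between the 2 fragmentation methods, in both directions. The site at 65270380 had 18 to 32 reads in the alkaline libraries and 1 in each RNase I library. The site at 65271101 had 20 to 36 reads in the former and 4 in each of the latter. The site at 65272345 went the other way between the scrambled siRNA libraries, with 30 reads (6.40 CPM) for RNase I and 5 (0.576 CPM) for alkaline. It had 2 reads without siRNA, 15 after CF Im25 siRNA, 12 after CF Im59 siRNA and 12 after CF Im68 siRNA (1.095 CPM), so the last lay within the alkaline range. The site at 65267313 had 27 reads (5.76 CPM) for scrambled and 25 (2.28 CPM) for CF Im68 siRNA in the RNase I pair. Their ratio was 0.396 (interval 0.221 to 0.709), so this site also differed within that pair. It had 4 to 13 reads (0.347 to 1.34 CPM) in the alkaline libraries. Fragmentation cannot be told apart here from anything else that differed between the 2 sets of libraries.

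In the last 2 kb of the MALAT1 window, reads were more numerous after CF Im25 and CF Im59 siRNA. The last 2 kb held 2.78 CPM without siRNA (46 reads), 2.30 after scrambled siRNA (20), 7.86 after CF Im25 siRNA (76) and 5.64 after CF Im59 siRNA (65). With RNase I it held 5.33 CPM for scrambled siRNA (25) and 6.39 for CF Im68 siRNA (70). The 2 alkaline controls were the lowest, and neither of their intervals (2.04 to 3.71 and 1.41 to 3.56 CPM) reached that of CF Im25 (6.19 to 9.84) or CF Im59 siRNA (4.35 to 7.18). Against scrambled siRNA the ratio was 3.41 after CF Im25 siRNA (interval 2.06 to 5.89) and 2.45 after CF Im59 siRNA (1.46 to 4.26), both called. By the same rule 13.1% of units were higher after CF Im25 siRNA and 8.61% after CF Im59 siRNA, and 11.2% after CF Im68 siRNA. Against no siRNA the ratios were 2.83 and 2.03. After CF Im68 siRNA the ratio was 1.20 (0.749 to 1.97), and no difference was detectable at this depth.

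Most of the reads after CF Im25 and CF Im59 siRNA came from the site at 65273938. It had 37 reads without siRNA, 11 after scrambled siRNA, 71 after CF Im25 siRNA (ratio 5.79, interval 3.05 to 12.1) and 55 after CF Im59 siRNA (ratio 3.76, interval 1.95 to 7.97). In the RNase I pair it had 22 reads for scrambled and 61 for CF Im68 siRNA, a scaled ratio of 1.19 (interval 0.718 to 2.03). As a share of all MALAT1 reads, the last 2 kb were 10.5% without siRNA (Wilson interval 7.95 to 13.7), 6.19% after scrambled siRNA (4.04 to 9.37), 19.2% after CF Im25 (15.7 to 23.4) and 17.2% after CF Im59 siRNA (13.8 to 21.4). In the RNase I pair it went from 6.76% (4.62 to 9.78) to 17.9% (14.4 to 22.0). The 3 knockdown libraries held the 3 highest shares, and none of their intervals overlapped that of any control library. The differences of 13.05, 11.05 and 11.1 points for CF Im25, CF Im59 and CF Im68 siRNA stayed below the 20 points of the rule. The last was 6.05 points with the last 3000 nt taken as the end. Against no siRNA the differences were 8.76 points for CF Im25 (interval 3.95 to 13.6) and 6.76 points for CF Im59 siRNA (interval 2.03 to 11.6). The ratio of the body was below 1 and that of the last 2 kb near 1 in the CF Im68 comparison. In the CF Im25 comparison the body was near 1 and the last 2 kb above it.

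**Figure D5:**
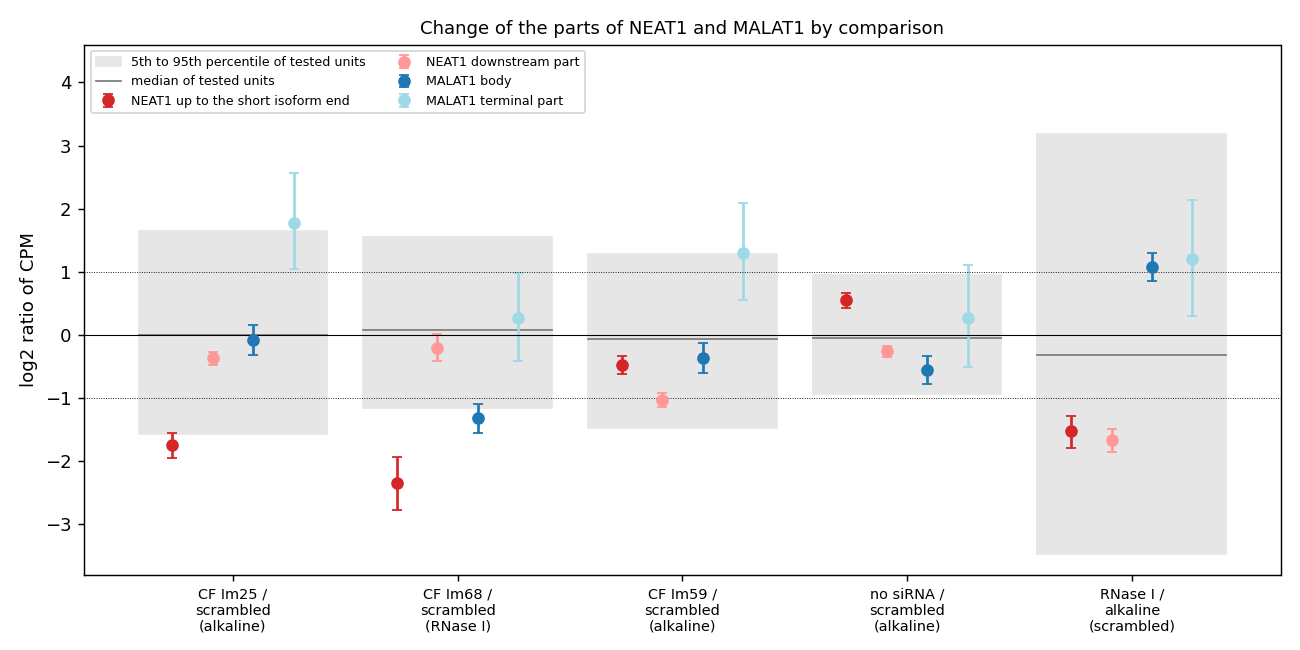
Log2 ratio of CPM (y axis) of each part of NEAT1 and MALAT1 in the 5 comparisons (x axis). Bars are exact 95% intervals for counting error, grey bands the 5th to 95th percentile and grey lines the median of the tested units, dotted lines 2-fold. The NEAT1 short end lies below the band for CF Im25 and CF Im68 siRNA.

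The balance of NEAT1 to MALAT1, which needs no scaling between libraries, was below that of the scrambled siRNA control after CF Im25 and CF Im59 siRNA, and above it after CF Im68 siRNA and without siRNA. Per kb of window there were 4.78 NEAT1 reads per MALAT1 read without siRNA, 3.26 after scrambled siRNA, 1.83 after CF Im25 siRNA and 2.10 after CF Im59 siRNA. With RNase I the values were 0.50 for scrambled siRNA and 0.694 for CF Im68 siRNA. Not divided by window length, these were 1.18 and 1.63 NEAT1 reads per MALAT1 read. Relative to scrambled siRNA the odds ratio was 0.561 (interval 0.476 to 0.659) for CF Im25, 0.644 (0.547 to 0.759) for CF Im59 and 1.39 (1.14 to 1.68) for CF Im68 siRNA, and 1.46 (1.25 to 1.71) for no siRNA. The largest difference was between the methods, at 0.153 (0.128 to 0.185) for RNase I against alkaline scrambled siRNA, or 0.262 without the highest position of each window.

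Reads on the opposite strand of the windows were few. The minus strand of NEAT1 had 2 reads without siRNA, 2 with CF Im25 siRNA and 0 in the other 4 libraries, where 0 reads allow up to 0.260 to 0.640 CPM. The stretch between the windows, on the plus strand, held 19 to 40 reads per library, or 0.0402 to 0.0994 CPM per kb. That lies below the 2.48 to 12.7 CPM per kb of the NEAT1 window and the 2.65 to 7.89 of the MALAT1 window.

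The units whose levels over the 6 libraries were most like those of each RNA were sought among 10124 units of at least 10 CPM, by the distance between centred log2 CPM. For NEAT1 they were chromosome 17 plus strand at 45789418 (distance 0.287), chromosome 19 minus strand at 41246767 (0.311) and chromosome 22 minus strand at 51205937 (0.315), where the median unit lay at 2.27. The first of these had 79.7, 65.6, 40.9 and 41.0 CPM in the alkaline libraries and 19.6 and 12.7 CPM in the RNase I libraries, in the order used above. For MALAT1 they were chr6:108190999-108192640 on the minus strand (0.251), chr7:102020260-102033966 on the plus strand (0.256) and chr2:64858756-64859402 on the minus strand (0.293), with a median unit at 1.89. The first had 45.0, 62.9, 76.9 and 67.2 CPM, then 137 and 61.8 CPM.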

How the data were processed

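The authors deposited counts, 1 table per library, listing read ends by nucleotide and strand. Builds are hg19 and GRCh37, per the submitters' processing notes. The aligner, the read filters and any treatment of duplicates or of priming at encoded A runs were not given in the sources used here. Of 2438055 positions, 49965 sites of 25 nt on either side of a summit passed a mean of 1 CPM, and nuclear sites were joined at gaps of up to 5 kb. CPM is scaled to reads in nuclear units. Ratios carry exact conditional intervals, and shares carry Wilson or Newcombe intervals. The rules of size were checked on simulated counts with counting error only. That check cannot show how the rules behave under a spread between libraries or under PCR copies. The named sites were the 5 with most reads in each window, and the like units the 3 nearest. The members and lists were chosen with earlier results of these data known. Planned lists of paraspeckle, speckle and processing factors need positions on the build of the files and were not used here. Encoded A runs were read from GENCODE transcripts (GRCh38) and set beside sites by distance only, after the counts were seen. Alternatives were other scalings (TMM from edgeR 4.0.16), kept sites only, thinning, no highest position, other boundaries and the other control. Python 3.11.15 and scipy 1.17.1 were used.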

Additional observations from a re-analysis of the deposited data

Results flagged for a closer look

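Reads on the minus strand of the MALAT1 window, which enter no comparison above, were more frequent with CF Im25 siRNA than in its control. There were 24 reads with CF Im25 siRNA and 9 with scrambled siRNA, a ratio of 2.39 (interval 1.07 to 5.85, counting error only). The no siRNA library also had 24 reads, or 1.45 CPM against 2.48 with CF Im25 siRNA and 1.04 with scrambled siRNA. CF Im59 siRNA had 8 reads, and the RNase I libraries had 1 with scrambled and 0 with CF Im68 siRNA.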

How the results depend on the processing

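No paired analysis was possible because each group held 1 library. Of 110 other settings tried for 25 results on NEAT1 and MALAT1, 106 kept the direction and 85 lay inside the interval of the reported value. Without the highest position, NEAT1 ratios were 0.488 (CF Im25), 1.16 (no siRNA) and 0.467 (RNase I against alkaline), its downstream share changed by 21.9 points (CF Im25, now past 20) and 14.5 points (RNase I against alkaline), the MALAT1 ratio between methods was 1.79 (no longer past 2-fold), and the NEAT1 to MALAT1 odds ratio was 0.441 (CF Im25) and 0.262 (methods). With TMM, NEAT1 ratios were 0.714 (CF Im68), 0.606 (CF Im59), 1.12 (no siRNA) and 0.367 (methods). With no siRNA as control, the NEAT1 downstream share changed by 30.6 (CF Im25) and 4.42 points (CF Im59, opposite in sign), MALAT1 ratios were 1.54 (CF Im25) and 1.23 (CF Im59, opposite in direction), and odds ratios 0.383 and 0.440. With kept sites only, the NEAT1 share between methods changed by 2.57 points, the MALAT1 ratio after CF Im68 siRNA was 0.389, the MALAT1 terminal share after CF Im25 siRNA changed by 18.6 points, and the odds ratio between methods was 0.122. Thinned to 5351980 reads, the MALAT1 ratio after CF Im68 siRNA was 0.376. With the last 3000 nt as the end of MALAT1, its share changed by 6.05 (CF Im68) and 6.20 points (methods). Without the sites beside encoded A runs, a setting added after seeing the data, the NEAT1 downstream share changed by 2.46 (CF Im25), -4.11 (CF Im59) and -5.30 points (no siRNA). The cause of these differences was not tested.

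Without a minimum of reads the background counts grew. Units higher and lower were 3636 and 3660 (CF Im25), 2444 and 3613 (CF Im59), 1208 and 2278 (no siRNA), 6414 and 8760 (methods), and 3285 lower (CF Im68). Pairs with a higher proximal share were 2191 (CF Im68), 325 (CF Im59), 193 (no siRNA) and 2244 (methods), and with a higher downstream share 384 (CF Im25), 278 (CF Im68), 591 (CF Im59), 359 (no siRNA) and 1950 (methods). Sites of 10 nt on either side moved none of the 20 background counts by over 1.5 times. Depth limits the last 2 kb of the MALAT1 window, with 20 and 25 reads in the scrambled siRNA libraries, and the smaller sites, some with 1 read in a library.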
